A study of Homo sapiens with 12 samples.

Results

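The genes described here were 47 genes of autophagy and the lysosome, taken by symbol from a table of 64253 genes; each symbol stood once in the table, and 46 of the 47 had enough reads to be tested, among 19460 tested genes in all. They were grouped by role as 6 genes of the ATG8 family, 7 cargo receptors, 4 genes of the initiation complex, 6 of the class III PI3-kinase complex, 6 of membrane supply, 11 of conjugation and 7 of the lysosome and its transcription factors. All libraries came from JEKO-1, a mantle cell lymphoma line, 48 h after treatment. Control cells had received DMSO. The other groups had received choline salicylate (CS), a salt of salicylic acid, or KPT-330 (selinexor), which blocks the export receptor XPO1 (also CRM1) of the nucleus, or both agents (KPT-330+CS), and the study asked how the salicylate altered the response to the XPO1 inhibitor. Each of the 4 groups had 3 libraries. Neither the concentrations used for these libraries nor whether the 3 were separate cultures is given in the sources used here, so p-values measure the spread between libraries, which may be technical. A single cell line was used.

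Autophagy delivers cytoplasm to the lysosome in a vesicle with a double membrane. The ULK1 complex starts it, the PI3-kinase complex marks the membrane with a lipid, and 2 conjugation reactions attach ATG8-family proteins to that lipid membrane, where they bind receptors that carry cargo. The vesicle then fuses with the lysosome, whose genes are controlled in part by TFEB and TFE3 through an E-box element, and TFEB is itself among the proteins that XPO1 carries out of the nucleus. RNA levels show neither where a protein is nor how much autophagy takes place. In RNA from whole cultures, a change in the share of cells of one kind and a change of RNA within each cell cannot be told apart.

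The libraries held 35325563 to 59490178 reads. The B-cell markers MS4A1 and PAX5 lay at 1002 to 1942 and 233 to 373 CPM (reads scaled to library size) over all libraries, and CCND1 averaged 429 CPM in DMSO, while 7 myeloid markers together reached at most 4.52 CPM and HBB was at 0. B-cell markers did not move as one. MS4A1, PAX5 and CD22 were higher with KPT-330 than in DMSO (log2 fold changes 0.31, 0.51 and 1.67), and with both agents against KPT-330 MS4A1 was higher (0.34) while PAX5 and CD22 were lower (-0.31 and -0.24). CD79B was also higher with KPT-330 (0.62), and CD79A was not called (0.61, adjusted p = 0.0501). Of 5 tested T-cell markers 4 were higher with KPT-330, with a sum over 6 markers of 62.7 to 65.3 CPM beside 40.1 to 58.1 CPM in DMSO, and both tested epithelial markers were higher, with a sum over 4 markers of 2.40 to 3.34 CPM beside 0.61 to 0.97 CPM. With both agents, 3 of the 5 T-cell markers were lower than with KPT-330, with a sum of 39.3 to 49.0 CPM. Nearly all reads in these T-cell sums were those of CD247, with 29063 over all libraries. Each other T-cell marker had 24 to 327 reads. Of 3 tested myeloid markers 2 were lower with KPT-330, and mitochondrial transcripts took 6.45 to 7.40% of reads in DMSO but 9.31 to 10.0% with both agents; the part of these in the results below was not tested. A gradient with transcript GC content also ran across the libraries. Whether it was technical or part of the response to treatment was not tested. Its slope, the change in a gene's log2 level (relative to its mean) per 10 points of transcript GC content, was -0.31 to 0.09 in DMSO, -0.23 to 0.06 with CS and -0.15 to 0.13 with both agents, but 0.20 to 0.23 in the KPT-330 libraries. Values corrected for it are given beside members with a high transcript GC content and beside some of the others whose account they alter. Scaling by library size alone, in place of TMM, raised the median of all genes by 0.16 (log2) for KPT-330 against DMSO and by 0.18 for both agents against DMSO, so every change below is relative to the TMM scale.

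KPT-330 raised 13 of the 46 tested members and lowered 9, beside 24.7% of all tested genes called higher and 23.8% called lower; the members' shares were 28.3% and 19.6%, near that background. Calls rest on edgeR's quasi-likelihood test, where p-values were adjusted by the Benjamini-Hochberg method across the whole tested table and had to reach 0.05 or below. The median log2 fold change was 0.14 over the members and 0.04 over all genes. The split turned with the scaling, for the members as for all genes. Library size alone gave 20 higher and 8 lower, beside 34.2% and 14.9% of all genes. GC correction gave 13 higher and 17 lower, beside 25.9% and 28.2%. CS alone raised 1 member and lowered 3, beside 3.76% and 5.13% of all genes. Those few calls changed with the libraries kept. Without DMSO replicate 1 there were 2 higher and 9 lower, without CS replicate 1 there were 0 higher, and without DMSO replicate 3 there were 2 higher and 0 lower. Without DMSO replicate 2, CS replicate 2 or CS replicate 3 none was called. Calls over all genes moved too, from 998 lower to 1792 without DMSO replicate 1 and to 360 without CS replicate 3. With library size alone CS gave 3 higher and 2 lower, beside 7.01% and 3.67% of all genes. With GC correction it gave 5 and 12, beside 9.87% and 13.6%. Both agents against DMSO raised 17 members and lowered 8, or 37.0% and 17.4%, beside 29.3% and 26.2% of all genes. Library size alone gave 22 and 5 there, beside 39.1% and 17.3% of all genes, and GC correction 20 and 18, beside 31.1% and 33.8%. Between the single agents, 8 members were higher with CS than with KPT-330 and 13 were lower, beside 20.2% and 22.6% of all genes. With library size alone the counts were 6 and 17, beside 15% and 28.2%.

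The addition of CS to KPT-330 gave a more one-sided picture. With both agents 15 members were higher than with KPT-330 alone and 4 were lower, beside 19.7% and 17.9% of all genes, and the members' median was 0.08 against -0.00 for all genes. GC correction gave 15 higher and 10 lower, beside 22% and 25.8% of all genes. Without KPT-330 replicate 2, 2 were lower, beside 13.8%. In the interaction, which asks whether CS changed a gene differently with KPT-330 present than without it, 16 members (34.8%) were higher and 2 (4.35%) lower, beside 8.04% and 6.62% of all genes. Of these 18 members, 8 kept their call in all 22 alternatives: GABARAPL1, GABARAPL2, BNIP3, LAMP2, NBR1, OPTN, VMP1 and WIPI1. The number higher fell to 10 without DMSO replicate 2 and to 10 without KPT-330 replicate 1, where 4.49% and 4.62% of all genes were higher. The 2 lower calls were both lost without DMSO replicate 2 or 3, CS replicate 2 or 3, any KPT-330 replicate, or KPT-330+CS replicate 2 or 3. The shares of all genes also depend on how many weakly expressed genes are tested. Under the stricter filter all 46 members stayed tested. In the interaction 16 were then higher and 2 lower, beside 12.1% and 8.21% of all genes. For both agents against KPT-330, 19 were higher and 4 lower, beside 25% and 20.4%.

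**Figure D1:**
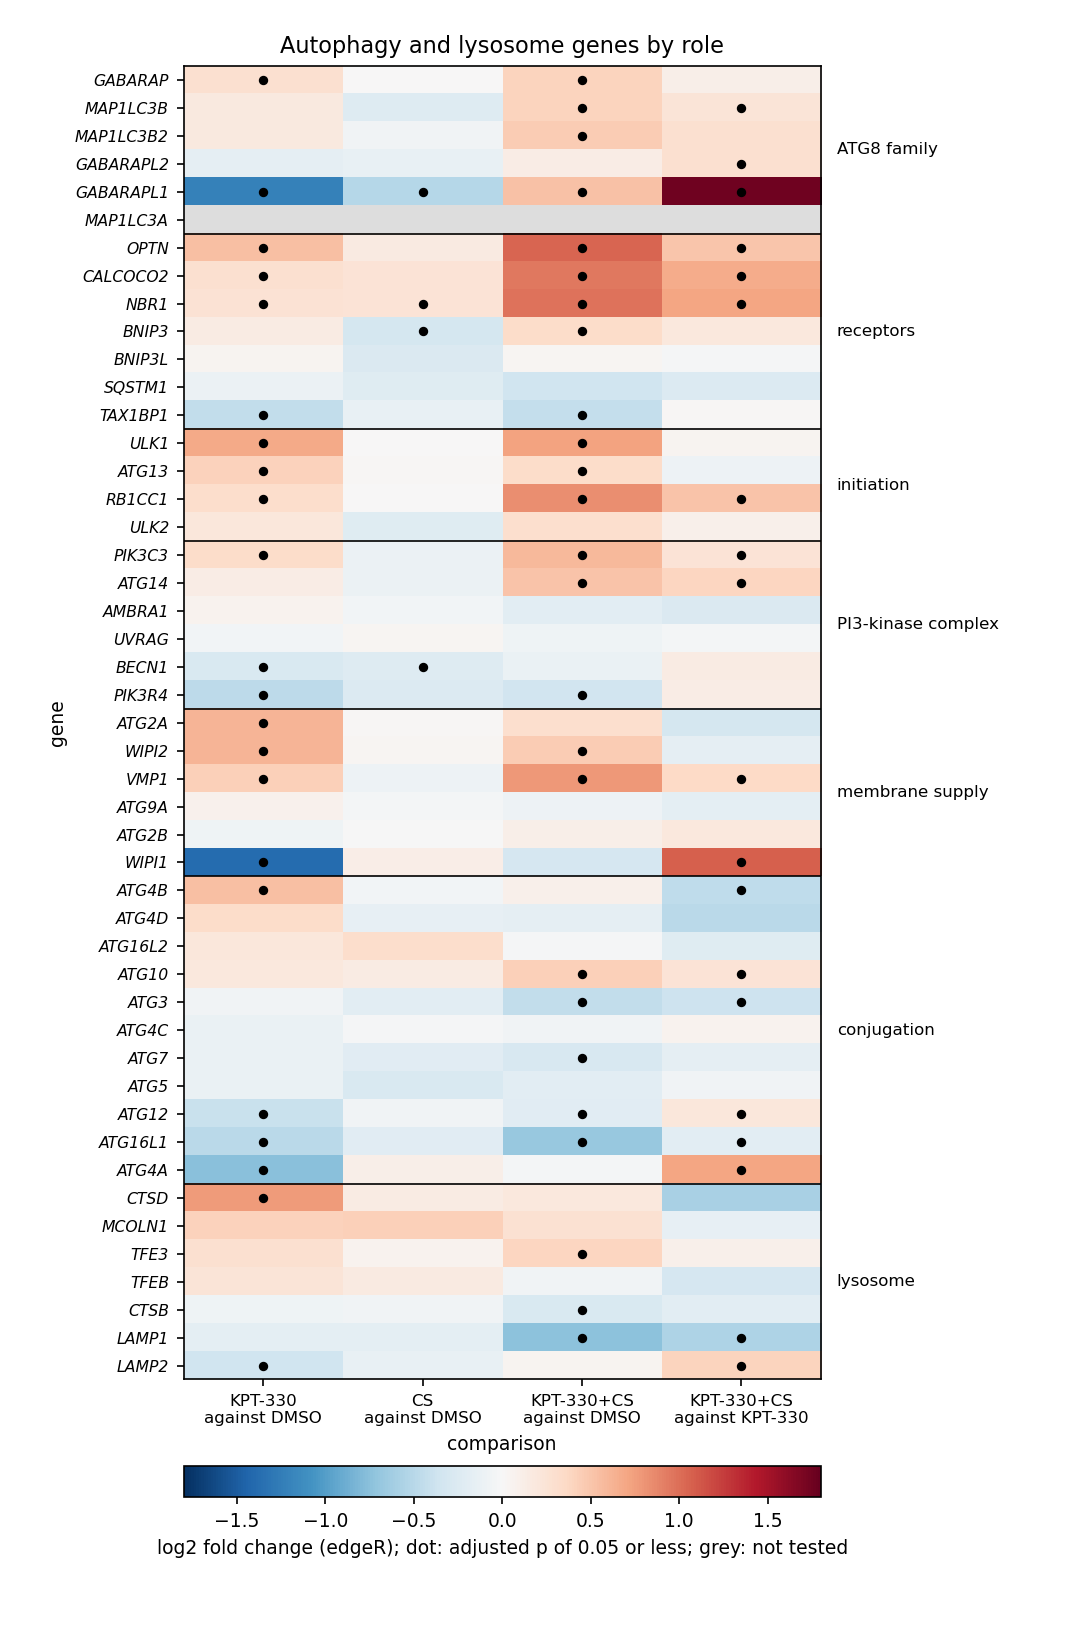
Log2 fold change of the 47 members (rows, by role) in 4 comparisons (columns), with a dot where the adjusted p was 0.05 or less and grey for the untested MAP1LC3A. GABARAPL1 and WIPI1 are the darkest blue tiles for KPT-330 against DMSO and the darkest red tiles for both agents against KPT-330, and OPTN, CALCOCO2 and NBR1 form a red block with both agents.

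**Figure D2:**
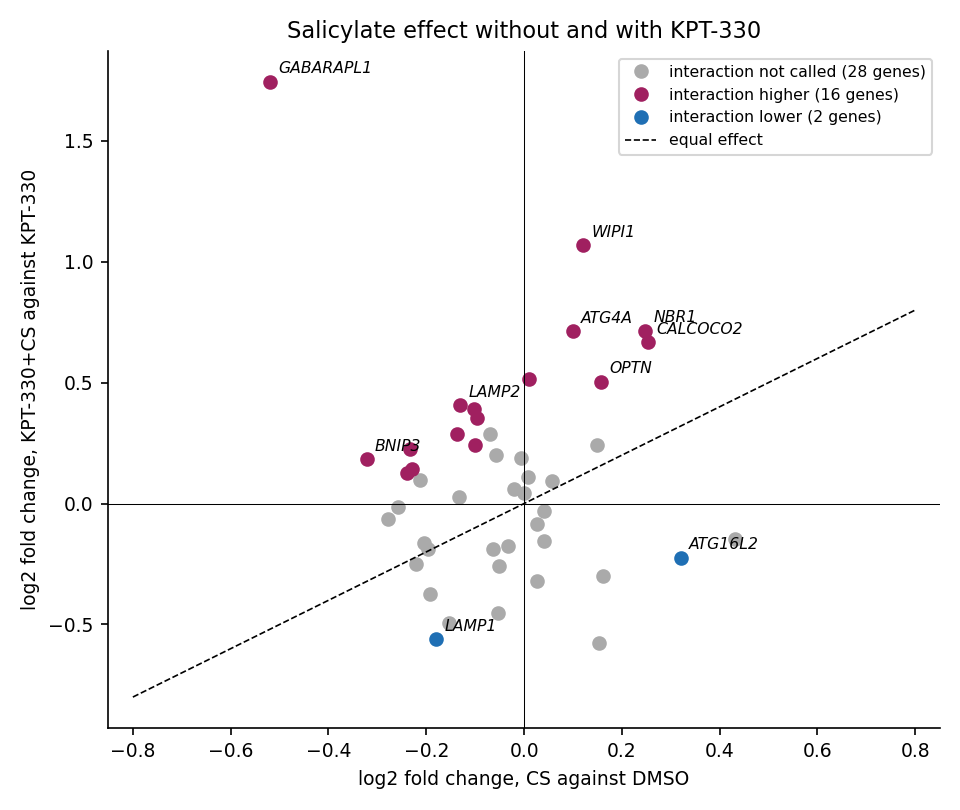
Each point is 1 of the 46 tested members, with its log2 fold change for CS against DMSO on the horizontal axis and for both agents against KPT-330 on the vertical axis; the dashed line marks equal effects. The 16 members with a higher interaction lie above the line, GABARAPL1 farthest from it, and LAMP1 and ATG16L2, with a lower interaction, lie below it.

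The ATG8 family provides the small proteins that are joined to the growing membrane, and its GABARAP and LC3 branches also bind the receptors. KPT-330 moved 2 of the 5 tested family members in opposite directions, GABARAP up and GABARAPL1 down. With both agents 3 were higher than with KPT-330, beside 19.7% of all genes. Per transcript length in DMSO, GABARAP stood highest at 36.9 ± 0.65 RPKM (reads scaled to gene length and library size; mean ± SD, n = 3), followed by MAP1LC3B at 27.1 ± 2.59, GABARAPL2 at 20.1 ± 0.75, MAP1LC3B2 at 3.53 ± 0.26 and GABARAPL1 at 2.21 ± 0.28 RPKM. None of these neighbours overlapped within 1 SD. MAP1LC3A had 4 reads in the 3 DMSO libraries together and at most 7 in any library, and was not tested.

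GABARAPL1 (ENSG00000139112, chr12:10212458-10223130 in hg38), which encodes a protein of the GABARAP branch, had the largest fold change among the members when CS was added to KPT-330. In order of replicate number its level was 7.80, 9.27 and 10.0 CPM in DMSO, 6.79, 6.20 and 5.93 CPM with CS, 3.54, 4.34 and 3.74 CPM with KPT-330, and 12.6, 11.9 and 14.4 CPM with both agents. The 4 groups did not overlap: each agent alone lay below DMSO, and both together lay above it. The log2 fold change was -1.22 ± 0.12 (SE) for KPT-330 against DMSO (edgeR adjusted p = 4.27e-06) and -0.52 ± 0.12 for CS against DMSO (adjusted p = 0.0183). With both agents it was 0.52 ± 0.12 against DMSO (adjusted p = 0.00201) and 1.74 ± 0.12 against KPT-330 (adjusted p = 5.17e-07), a 3.35-fold rise. The interaction was 2.26 ± 0.17 (adjusted p = 5.27e-06), and it stayed between 2.16 and 2.36 over 22 alternatives. The CS effect alone was less firm: the call was lost without DMSO replicate 2, DMSO replicate 3, CS replicate 2 or CS replicate 3. GABARAPL3, a near copy of GABARAPL1 with 95.4% identity over the coding bases, had 0 reads.

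The promoter of GABARAPL1 is shown because this gene had the largest interaction among the tested members. RefSeq gives the window from 250 bases before to 50 after its start as chr12:10212627-10212926 (GRCh38.p14, plus strand), printed 5′ to 3′ with the one TGACGTCA, a palindromic cAMP-response element, in capitals:
GABARAPL1: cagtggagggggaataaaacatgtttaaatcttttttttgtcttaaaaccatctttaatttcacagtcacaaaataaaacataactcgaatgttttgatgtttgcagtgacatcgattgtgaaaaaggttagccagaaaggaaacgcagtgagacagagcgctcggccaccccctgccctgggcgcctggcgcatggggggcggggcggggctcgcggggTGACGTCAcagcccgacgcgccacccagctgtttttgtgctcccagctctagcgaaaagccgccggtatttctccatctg
This element was looked for after the window had been read. Of the 40 members with a RefSeq window, GABARAPL1 alone held it on either strand, and 2.25% of 27305 genes did. The window held no CACGTG. The match is a description of the letters and not of binding.

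MAP1LC3B, the LC3 gene most used as an autophagosome marker, also responded to CS differently with and without KPT-330. Its levels were 129, 146 and 157 CPM in DMSO, 127, 123 and 117 CPM with CS, 160, 167 and 161 CPM with KPT-330, and 177, 188 and 205 CPM with both agents. The groups did not overlap, with CS lowest and the combination highest, though the highest DMSO library came close to KPT-330. KPT-330 alone gave 0.18 ± 0.07 (adjusted p = 0.0585), which missed the threshold, and both agents gave 0.40 ± 0.07 against DMSO (adjusted p = 0.00034). The interaction was 0.46 ± 0.10 (adjusted p = 0.00971). The rise of 0.23 ± 0.07 over KPT-330 alone (adjusted p = 0.0246) was lost without KPT-330 replicate 1 or 3 or KPT-330+CS replicate 2 or 3.

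GABARAP (chr17:7240014-7242770 in hg38) rose with the XPO1 inhibitor whether or not CS was present. It lay at 82.4, 83.0 and 85.2 CPM in DMSO, 83.4, 83.4 and 85.2 CPM with CS, 105, 99.2 and 102 CPM with KPT-330, and 109, 110 and 113 CPM with both agents. CS and DMSO overlapped, and all 6 libraries with KPT-330 lay above them. The log2 fold change was 0.29 ± 0.04 for KPT-330 (adjusted p = 0.000149) and 0.40 ± 0.04 for both agents (adjusted p = 5.25e-06). Part of GABARAP is shared with a read-through gene on the same strand, which had 32653 reads to GABARAP's 55824, so its value is uncertain. GABARAPL2 was called only in comparisons that set both agents against KPT-330 (0.29 ± 0.06, adjusted p = 0.0026) and in the interaction (0.43 ± 0.09, adjusted p = 0.00619).

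MAP1LC3B2 could be counted only uncertainly. Its coding sequence of 375 bases differs from that of MAP1LC3B at 2 bases (99.5% identity), which is why the first 60 bases of both are shown, read from GENCODE 44 on hg38, with the one differing base among these 60 in capitals:
MAP1LC3B: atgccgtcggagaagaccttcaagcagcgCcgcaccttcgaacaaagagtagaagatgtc
MAP1LC3B2: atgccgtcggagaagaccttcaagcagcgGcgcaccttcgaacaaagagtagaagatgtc
The table gave MAP1LC3B2 1741 reads and MAP1LC3B 90521 over all libraries. MAP1LC3B2 was higher with both agents than in DMSO (0.46 ± 0.12, adjusted p = 0.00595), and how reads were divided between the pair is not given in the sources used here.

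The cargo receptors link ubiquitin-tagged proteins, bacteria or mitochondria to ATG8 proteins. OPTN, NBR1 and CALCOCO2 rose with KPT-330 and rose further with both agents, TAX1BP1 fell, and SQSTM1 and BNIP3L missed the threshold in each comparison with DMSO. With both agents, 4 of the 7 receptors were higher than in DMSO and 1 was lower, beside 29.3% and 26.2% of all genes. Against KPT-330 alone 3 were higher, beside 19.7%.

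OPTN (optineurin, chr10:13099449-13138308 in hg38), a receptor for damaged mitochondria and bacteria, had the tightest values of the group. Its level was 42.1, 44.4 and 43.1 CPM in DMSO, 48.1, 49.9 and 46.6 CPM with CS, 63.8, 62.5 and 62.7 CPM with KPT-330, and 88.1, 89.9 and 89.9 CPM with both agents. The 4 groups formed 4 separate steps in that order. Against DMSO, the log2 fold change was 0.54 ± 0.05 for KPT-330 (adjusted p = 1.32e-06) and 1.05 ± 0.05 for both agents (adjusted p = 1.5e-09), a 2.07-fold rise. CS alone gave 0.16 ± 0.05 (adjusted p = 0.0593). The interaction was 0.35 ± 0.07 (adjusted p = 0.00486).

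NBR1 (chr17:43170481-43211689 in hg38), a ubiquitin-binding receptor for protein aggregates and peroxisomes, was at 31.8, 34.7 and 36.6 CPM in DMSO, 42.1, 39.9 and 40.4 CPM with CS, 42.0, 40.3 and 41.7 CPM with KPT-330, and 64.6, 68.5 and 70.3 CPM with both agents. The single agents overlapped each other, lay above DMSO, and lay below the combination. Both agents gave 0.98 ± 0.06 against DMSO (adjusted p = 2.57e-08), beside 0.27 ± 0.06 for KPT-330 (adjusted p = 0.00332) and 0.25 ± 0.06 for CS (adjusted p = 0.0267). NBR1 was the one member that CS alone raised, and that call was lost without any of the 3 CS libraries or without DMSO replicate 2. The interaction was 0.47 ± 0.09 (adjusted p = 0.00379), so the combination exceeded the sum of both single effects on the log2 scale.

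CALCOCO2 (NDP52), a receptor for bacteria and mitochondria, gave much the same order, with 27.5 to 34.4 CPM in DMSO, 33.5 to 39.2 CPM with CS, 36.0 to 38.0 CPM with KPT-330 and 57.5 to 60.3 CPM with both agents. Its log2 fold change was 0.28 ± 0.08 for KPT-330 (adjusted p = 0.0113) and 0.95 ± 0.08 for both agents (adjusted p = 4.26e-07). The interaction of CALCOCO2 was called higher, but less firmly than that of NBR1. Its call was lost without DMSO replicate 2 or 3, CS replicate 2 or 3, any KPT-330 replicate, or KPT-330+CS replicate 2 or 3. TAX1BP1, a receptor related to CALCOCO2, went the other way.

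TAX1BP1 had 109, 120 and 130 CPM in DMSO, 115, 110 and 102 CPM with CS, 87.4, 90.8 and 84.9 CPM with KPT-330, and 84.0, 87.7 and 96.0 CPM with both agents. The 6 libraries with KPT-330 lay below the other 6, and the combination overlapped KPT-330 alone. The change was -0.45 ± 0.07 for KPT-330 (adjusted p = 0.000215) and -0.42 ± 0.07 for both agents (adjusted p = 0.000236). It shares 415 exonic bases with JAZF1 on the opposite strand, which had 45309 reads to its 58762.

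BNIP3, a receptor on the outer mitochondrial membrane, was at 35.2, 39.7 and 41.8 CPM in DMSO and 33.7, 30.2 and 29.5 CPM with CS. With KPT-330 it was at 44.4, 41.1 and 43.2 CPM, and with both agents at 45.6, 48.8 and 51.8 CPM. CS libraries were lowest and combined libraries highest. CS alone gave -0.32 ± 0.08 (adjusted p = 0.0234), a call lost without DMSO replicate 2 or 3 or CS replicate 2 or 3, both agents gave 0.33 ± 0.08 against DMSO (adjusted p = 0.00304), and the interaction was 0.51 ± 0.11 (adjusted p = 0.00909).

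SQSTM1 (p62), the receptor most used as a readout of autophagic flux, varied too much between libraries for a call. It had 37.7, 29.3 and 22.1 CPM in DMSO, 21.1, 24.2 and 31.2 CPM with CS, 27.2, 27.0 and 28.8 CPM with KPT-330, and 26.5, 23.8 and 19.5 CPM with both agents. DMSO and CS overlapped every group, while the KPT-330 libraries lay just above those with both agents. The log2 fold changes against DMSO were -0.10 ± 0.18 for KPT-330, -0.22 ± 0.18 for CS and -0.35 ± 0.18 for both agents (adjusted p = 0.652, 0.524 and 0.108). After GC correction the KPT-330 value was -0.40 (adjusted p = 8.7e-05), that of CS -0.24 (adjusted p = 0.0175) and that of both agents -0.48 (adjusted p = 8.18e-06). SQSTM1 shares 1582 exonic bases with MRNIP on the opposite strand, which had 27951 reads to its 15596.

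**Figure D3:**
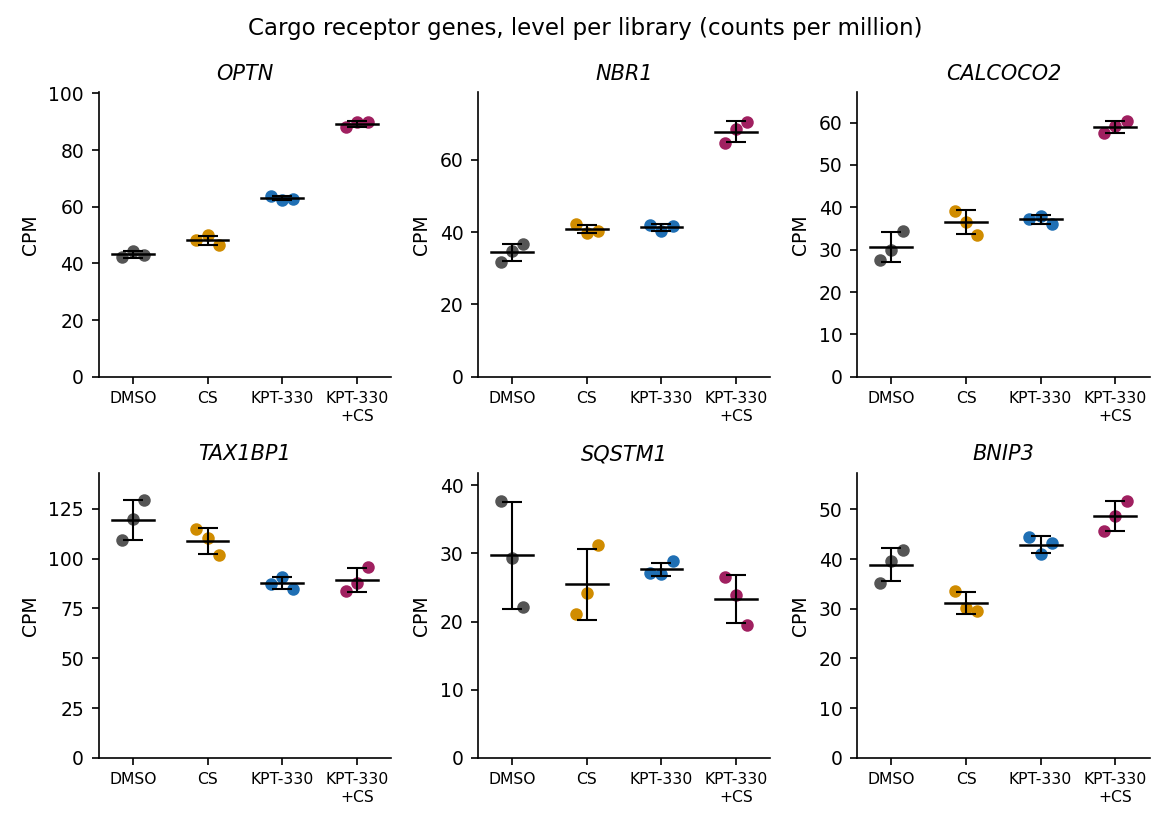
Level of 6 cargo receptor genes in each library (points, CPM on an axis from 0), with the group mean (bar) and SD (error bar), n = 3 libraries a group. OPTN, NBR1 and CALCOCO2 are highest with both agents, TAX1BP1 is lower in both groups with KPT-330, and the SQSTM1 libraries of DMSO and CS spread over the range of the other groups.

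The initiation complex holds the kinases ULK1 and ULK2 with the scaffolds ATG13 and RB1CC1 (FIP200). KPT-330 raised 3 of its 4 members, all but ULK2, whose value was 0.21 ± 0.15 (adjusted p = 0.267), and the same 3 were higher with both agents than in DMSO. Of all genes, 24.7% and 29.3% were higher in these 2 comparisons. RB1CC1 had 31.1, 37.4 and 40.6 CPM in DMSO, 37.1, 38.2 and 34.6 CPM with CS, 45.2, 45.1 and 45.1 CPM with KPT-330, and 59.4, 64.1 and 70.4 CPM with both agents. CS overlapped DMSO, KPT-330 lay above both, and the combination lay above KPT-330. RB1CC1 rose by 0.31 ± 0.09 with KPT-330 (adjusted p = 0.0116) and by 0.83 ± 0.09 with both agents (adjusted p = 4.23e-06), with an interaction of 0.51 ± 0.13 (adjusted p = 0.0186) that was lost without DMSO replicate 2.

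ATG13 responded to KPT-330 with no further rise when CS was added. It had 66.6, 61.6 and 55.8 CPM in DMSO, 60.2, 64.3 and 62.9 CPM with CS, 84.7, 80.5 and 80.9 CPM with KPT-330, and 79.0, 78.5 and 74.6 CPM with both agents. All 6 libraries with KPT-330 were above the other 6. The change was 0.42 ± 0.06 for KPT-330 (adjusted p = 0.000132), 0.34 ± 0.06 for both agents (adjusted p = 0.000546) and -0.08 ± 0.06 for both agents against KPT-330 (adjusted p = 0.313).

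ULK1, the kinase that starts autophagy, was low and GC-rich (64.2% of transcript bases, beside a median of 48.3% over the members). Its levels were 6.04, 4.50 and 3.01 CPM in DMSO, 3.31, 4.22 and 5.99 CPM with CS, 6.26, 7.64 and 7.86 CPM with KPT-330, and 9.27, 7.52 and 5.65 CPM with both agents. KPT-330 libraries lay above DMSO by a narrow margin, and the other groups overlapped it. The call for KPT-330 (0.68 ± 0.26, adjusted p = 0.0426) fell to 0.04 after GC correction (adjusted p = 0.738) and was also lost without DMSO replicate 2 or 3, KPT-330 replicate 2 or 3, CS replicate 2 or KPT-330+CS replicate 2. For both agents against DMSO, ULK1 gave 0.72 ± 0.26 (adjusted p = 0.029), a call lost without DMSO replicate 2 or 3, CS replicate 2 or KPT-330+CS replicate 1 or 2.

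The PI3-kinase complex makes the lipid signal on the membrane, with PIK3C3 (VPS34) as its kinase, PIK3R4 and BECN1 as shared subunits, ATG14 or UVRAG as alternative subunits, and AMBRA1 as a regulator. Its members split: KPT-330 raised PIK3C3 and lowered PIK3R4 and BECN1, and CS on top of KPT-330 raised PIK3C3 and ATG14. In the interaction, 4 of the 6 were higher (BECN1, PIK3C3, PIK3R4 and ATG14), beside 8.04% of all genes. Each of these calls was lost without KPT-330 replicate 1. All but that of BECN1 were also lost without DMSO replicate 2, CS replicate 2, KPT-330 replicate 3 or KPT-330+CS replicate 2 or 3, that of ATG14 also without CS replicate 1, and those of PIK3C3 and PIK3R4 also without DMSO replicate 3, CS replicate 3 or KPT-330 replicate 2.

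PIK3C3 had 59.0, 66.5 and 69.4 CPM in DMSO, 64.7, 60.6 and 56.5 CPM with CS, 80.1, 84.2 and 81.6 CPM with KPT-330, and 89.8, 96.1 and 105 CPM with both agents. The combination lay highest, KPT-330 next, and the other groups overlapped. The change was 0.34 ± 0.07 for KPT-330 (adjusted p = 0.00236) and 0.58 ± 0.07 for both agents (adjusted p = 2.13e-05). The step of 0.24 ± 0.07 from KPT-330 to both agents (adjusted p = 0.0215) was lost without KPT-330 replicate 1 or 3 or KPT-330+CS replicate 2 or 3. PIK3R4, its partner, moved the opposite way.

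PIK3R4 had 57.2, 67.5 and 69.7 CPM in DMSO, 57.4, 54.8 and 52.3 CPM with CS, 46.6, 47.1 and 46.2 CPM with KPT-330, and 47.8, 51.9 and 53.0 CPM with both agents. KPT-330 libraries were the lowest. The change was -0.47 ± 0.07 for KPT-330 (adjusted p = 0.000158) and -0.35 ± 0.07 for both agents (adjusted p = 0.00124).

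BECN1 (Beclin 1), the subunit bound by BCL2, was at 40.9, 44.4 and 46.1 CPM in DMSO, 37.5, 37.5 and 37.0 CPM with CS, 35.2, 37.0 and 36.7 CPM with KPT-330, and 37.4, 40.5 and 42.5 CPM with both agents. Each agent alone lay below DMSO, while the combination overlapped it. The change was -0.27 ± 0.06 for KPT-330 (adjusted p = 0.00356) and -0.23 ± 0.06 for CS (adjusted p = 0.0418), and -0.13 ± 0.06 for both agents (adjusted p = 0.11). The KPT-330 call ended when libraries were scaled by size alone (-0.11), and the CS call was lost in 17 of 23 alternatives, among them without any CS library, any KPT-330 library, DMSO replicate 2 or 3, or KPT-330+CS replicate 2. BECN1 shares 300 exonic bases with PSME3 on the opposite strand, which had 91646 reads to its 22903.

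ATG14, which directs the complex to autophagy, had 10.8, 11.8 and 13.7 CPM in DMSO, 10.7, 11.5 and 11.6 CPM with CS, 12.6, 14.0 and 13.2 CPM with KPT-330, and 17, 16.9 and 18.1 CPM with both agents. The combination stood above the other 9 libraries, which overlapped. ATG14 was higher with both agents by 0.52 ± 0.09 than in DMSO (adjusted p = 0.000354) and by 0.39 ± 0.09 than with KPT-330 (adjusted p = 0.00524). It shares 1047 exonic bases with FBXO34 on the opposite strand, which had 19395 reads to its 7897. UVRAG and AMBRA1 were called in none of the 6 comparisons, with log2 values from -0.08 to 0.09 and from -0.26 to 0.07. After GC correction AMBRA1 (55.5% GC) was called at -0.17 for KPT-330 (adjusted p = 0.00798), the opposite direction, and at -0.31 for both agents against DMSO (adjusted p = 2.1e-05) and -0.15 against KPT-330 (adjusted p = 0.0209). UVRAG then passed at -0.10 for both agents against DMSO (adjusted p = 0.0324) and -0.13 against KPT-330 (adjusted p = 0.0115), with an interaction of -0.17 (adjusted p = 0.0283).

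Membrane supply covers WIPI1 and WIPI2, which read the lipid, ATG2A and ATG2B, which transfer lipids, and the membrane proteins ATG9A and VMP1. WIPI1 and WIPI2, which are close relatives, moved in opposite directions with KPT-330. VMP1 rose in both groups with KPT-330, and was higher with CS added than without.

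WIPI1 (ENSG00000070540, chr17:68420948-68457513 in hg38) fell most of all members with KPT-330. It had 3.39, 3.5 and 3.54 CPM in DMSO, 3.57, 4.11 and 3.66 CPM with CS, 1.43, 1.49 and 1.10 CPM with KPT-330, and 2.94, 2.77 and 2.70 CPM with both agents. KPT-330 libraries were lowest, and the combination lay between them and DMSO. KPT-330 gave -1.38 ± 0.13 (adjusted p = 2.98e-06), a 2.6-fold fall, and CS on top of KPT-330 gave 1.07 ± 0.13 (adjusted p = 5.53e-05). Both agents against DMSO gave -0.31 ± 0.13 (adjusted p = 0.053). The interaction was 0.95 ± 0.18 (adjusted p = 0.00439). WIPI1 had 1637 reads in all and overlaps ARSG (5872 reads) and a noncoding RNA gene (21464 reads) on the opposite strand, so its level is uncertain.

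WIPI2, which recruits ATG16L1, had 120, 103 and 86.4 CPM in DMSO, 93.9, 104 and 120 CPM with CS, 159, 154 and 161 CPM with KPT-330, and 156, 144 and 125 CPM with both agents. The 6 libraries with KPT-330 lay above the other 6. It rose by 0.62 ± 0.11 with KPT-330 (adjusted p = 0.000637) and by 0.46 ± 0.11 with both agents (adjusted p = 0.0038). VMP1, which acts where the membrane forms at the endoplasmic reticulum, had 48.3, 53.0 and 57.6 CPM in DMSO, 51.0, 51.3 and 46.3 CPM with CS, 70.6, 71.8 and 71.1 CPM with KPT-330, and 83.0, 90.0 and 99.5 CPM with both agents. The combination was highest and KPT-330 next, with no overlap. VMP1 rose by 0.43 ± 0.08 with KPT-330 (adjusted p = 0.000519) and by 0.78 ± 0.08 with both agents (adjusted p = 1.75e-06), and its interaction was 0.45 ± 0.11 (adjusted p = 0.0155). ATG2A had 9.38, 5.67 and 4.68 CPM in DMSO, 5.5, 6.49 and 8.12 CPM with CS, 9.0, 11.1 and 10.3 CPM with KPT-330, and 9.47, 8.75 and 6.18 CPM with both agents, and all groups overlapped DMSO. Its transcript is 63.9% GC. The call of ATG2A with KPT-330 (0.62 ± 0.23, adjusted p = 0.042) was gone after GC correction (-0.00098, adjusted p = 0.994) and was lost without DMSO replicate 2 or 3, CS replicate 2, any KPT-330 replicate or KPT-330+CS replicate 2. ATG9A (59.8% GC) was called in none of the comparisons as counted, at 0.08 ± 0.15 for KPT-330, but after GC correction it was called at -0.36 for KPT-330 (adjusted p = 5.06e-06), -0.26 for both agents against DMSO (adjusted p = 0.000161) and 0.30 for CS against KPT-330 (adjusted p = 4.78e-05). The first and the last of these turned in direction. ATG2B was called in none as counted, and with both agents against DMSO it passed at 0.30 with library size alone (adjusted p = 0.00106) and 0.12 after GC correction (adjusted p = 0.0065), and against KPT-330 at 0.21 with library size alone (adjusted p = 0.0147).

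Conjugation is the enzyme cascade that trims ATG8 proteins (the ATG4 proteases) and joins them to lipid (ATG7, ATG3, ATG10, ATG5, ATG12, ATG16L1). KPT-330 lowered 3 of these 11 genes (ATG4A, ATG12 and ATG16L1) and raised ATG4B, beside 23.8% of all genes lower and 24.7% higher. Both agents against KPT-330 split them evenly, beside 19.7% of all genes higher and 17.9% lower, with 3 higher (ATG4A, ATG10, ATG12) and 3 lower (ATG3, ATG4B, ATG16L1). Of these, ATG10, ATG12 and ATG16L1 changed by 0.24 ± 0.09, 0.20 ± 0.06 and -0.19 ± 0.06 (adjusted p = 0.0407, 0.0274 and 0.0236), and all 3 calls were lost without KPT-330 replicate 1, KPT-330 replicate 2 or KPT-330+CS replicate 2. That of ATG10 was also lost without DMSO replicate 2, CS replicate 2, KPT-330 replicate 3 or KPT-330+CS replicate 1 or 3. That of ATG12 was also lost without KPT-330 replicate 3 or KPT-330+CS replicate 3, and that of ATG16L1 without KPT-330+CS replicate 1. GC correction, with or without the replicate block, likewise ended the calls of ATG10 and ATG12. Against DMSO, both agents raised 1 of the 11 genes and lowered 4, beside 29.3% and 26.2% of all genes. The higher one was ATG10 (0.43, edgeR adjusted p = 0.000932), a call kept in 23 of 23 alternatives. ATG7 was among the lower ones (-0.28, edgeR adjusted p = 0.0057), a call kept in 21 of 23 and lost with library size alone. ATG16L2, a relative of ATG16L1, had a lower interaction (-0.54 ± 0.16, adjusted p = 0.0394), which GC correction brought to -0.21 (adjusted p = 0.0875). For KPT-330 against DMSO, the correction turned ATG16L2 (60.2% GC) from 0.20 to -0.28 (adjusted p = 0.000936), and ATG4D (64.8% GC) from 0.33 to -0.31 (adjusted p = 0.0126).

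ATG4A (chrX:108091668-108154671 in hg38), the protease that prefers GABARAP proteins, had 15.8, 19.0 and 21.7 CPM in DMSO, 23, 19.1 and 18.3 CPM with CS, 10.4, 12.6 and 10.5 CPM with KPT-330, and 18.7, 15.8 and 20.4 CPM with both agents. KPT-330 libraries were the lowest, and the other 3 groups overlapped. KPT-330 gave -0.75 ± 0.14 (adjusted p = 0.000545), and CS on top of it 0.71 ± 0.14 (adjusted p = 0.00122). The interaction (0.61 ± 0.19, adjusted p = 0.0472) was lost in 12 of 22 alternatives, including those without DMSO replicate 2 or 3, CS replicate 2 or 3, KPT-330 replicate 1 or 3, or KPT-330+CS replicate 1 or 3.

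ATG4B, the protease with the broadest range among ATG8 proteins, showed the reverse order, with 51.9, 44.1 and 37.5 CPM in DMSO, 36.4, 42.1 and 50.2 CPM with CS, 62.2, 67.2 and 65.0 CPM with KPT-330, and 53.5, 47.4 and 41.2 CPM with both agents. KPT-330 libraries alone stood apart, above the rest. The change of 0.54 ± 0.13 with KPT-330 (adjusted p = 0.00399) became 0.03 after GC correction (adjusted p = 0.627), and the transcript is 60.9% GC. The fall of 0.45 ± 0.13 when CS was added (adjusted p = 0.0149), a log2 fold change of -0.45, shrank to -0.13 after GC correction (adjusted p = 0.0418). That call was lost with library size alone (-0.43, adjusted p = 0.0505), without a filter, under GC correction with the replicate block, and without KPT-330 replicate 2 or KPT-330+CS replicate 3.

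ATG16L1, the scaffold that places the conjugation complex on the membrane, fell stepwise. It had 34.0, 33.1 and 33.9 CPM in DMSO, 29.0, 30.6 and 28.4 CPM with CS, 24.2, 24.4 and 23.4 CPM with KPT-330, and 20.3, 21.0 and 21.8 CPM with both agents. The 4 groups did not overlap. The change was -0.49 ± 0.06 with KPT-330 (adjusted p = 1.97e-05) and -0.68 ± 0.06 with both agents (adjusted p = 5.44e-07), beside -0.20 ± 0.06 with CS (adjusted p = 0.0536).

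ATG12, the ubiquitin-like partner of ATG5, was at 87.3 to 101 CPM in DMSO and 69.9 to 71.1 CPM with KPT-330, a change of -0.41 ± 0.06 (adjusted p = 0.000198). ATG3, the enzyme that hands ATG8 to the lipid, was lower where CS was added to KPT-330, with log2 values of -0.44 ± 0.06 against DMSO (adjusted p = 6.16e-05) and -0.38 ± 0.06 against KPT-330 (adjusted p = 0.000566). ATG5, the core of the ATG12 conjugate, was called in none of the 6 comparisons. It had 26.2, 31.2 and 32.6 CPM in DMSO, 25.9, 24.9 and 23.4 CPM with CS, 26.3, 29.4 and 26.8 CPM with KPT-330, and 24.6, 25.5 and 28.9 CPM with both agents. After GC correction ATG5 passed as lower for CS against DMSO (-0.24, adjusted p = 0.00155) and against KPT-330 (-0.28, adjusted p = 9.61e-05), and for both agents against DMSO (-0.14, adjusted p = 0.0174) and against KPT-330 (-0.19, adjusted p = 0.00405). ATG10 overlaps RPS23 on the opposite strand by 374 exonic bases, and RPS23 had 1121948 reads to 6949 for ATG10, so the values of ATG10 are uncertain. ATG16L2 and ATG4D likewise share 680 bases with FCHSD2 (61532 reads to 21950) and 334 with KRI1 (27549 reads to 5075).

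**Figure D4:**
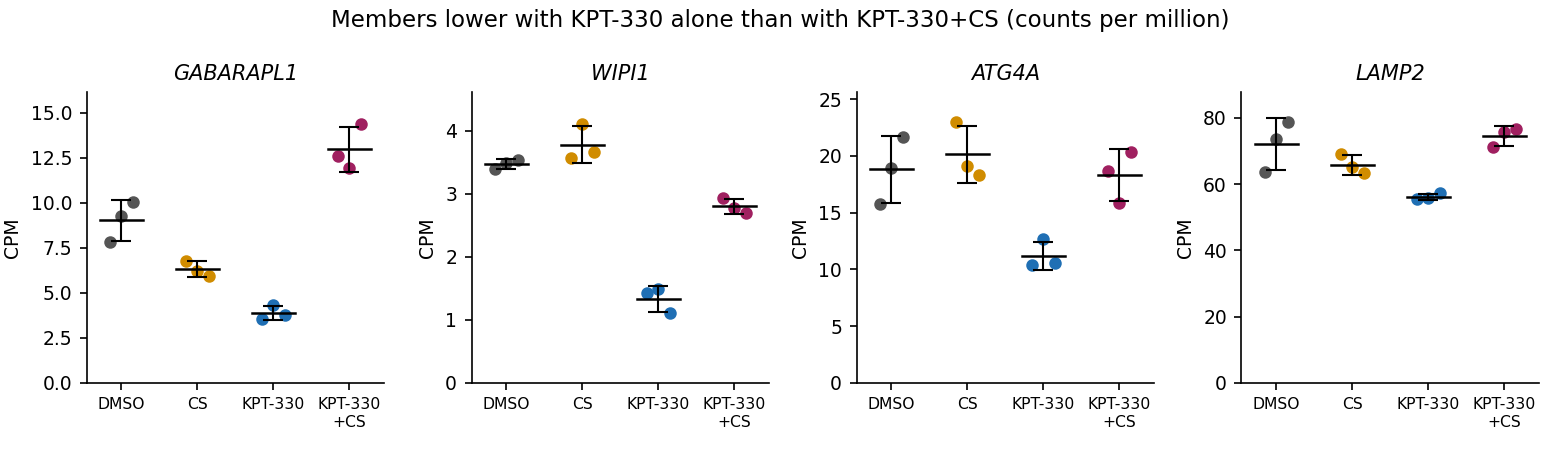
Level of GABARAPL1, WIPI1, ATG4A and LAMP2 in each library (points, CPM on an axis from 0), with the group mean (bar) and SD (error bar), n = 3 libraries a group. In all 4 panels the KPT-330 libraries are the lowest and those with both agents lie above them, for GABARAPL1 also above DMSO.

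The lysosome members were its 2 main membrane glycoproteins LAMP1 and LAMP2, the proteases CTSB and CTSD, the calcium channel MCOLN1, and the transcription factors TFEB and TFE3. KPT-330 lowered LAMP2 and raised CTSD. When CS was added, LAMP2 rose and LAMP1 fell, so that these paired glycoproteins parted. Per transcript length, LAMP2 and LAMP1 were at 13 ± 1.41 and 9.99 ± 0.95 RPKM in DMSO and at 13.5 ± 0.54 and 6.00 ± 0.31 RPKM with both agents (mean ± SD, n = 3).

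LAMP1 (ENSG00000185896, chr13:113297241-113323672 in hg38) had 62.5, 57.8 and 51.7 CPM in DMSO, 46.1, 50.0 and 55.7 CPM with CS, 48.2, 52.2 and 51.8 CPM with KPT-330, and 36.4, 33.9 and 32.9 CPM with both agents. The combination lay below the other 9 libraries, which overlapped. It was lower with both agents, with log2 values of -0.74 ± 0.08 against DMSO (adjusted p = 6.26e-06) and -0.56 ± 0.08 against KPT-330 (adjusted p = 0.000203). For KPT-330 against DMSO LAMP1 was not called. There it passed as lower without DMSO replicate 3 (-0.23, edgeR adjusted p = 0.0317) and with the libraries of lowest GC slope left out (-0.25, edgeR adjusted p = 0.00721). The interaction of -0.38 ± 0.12 (adjusted p = 0.0457) was lost without DMSO replicate 2 or 3, CS replicate 2 or 3, any KPT-330 replicate, or KPT-330+CS replicate 2 or 3.

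LAMP2 (chrX:120427827-120469365 in hg38), which is also needed for fusion of the vesicle with the lysosome, had 63.5, 73.7 and 78.8 CPM in DMSO, 69.1, 65.0 and 63.3 CPM with CS, 55.6, 55.7 and 57.3 CPM with KPT-330, and 71.1, 75.6 and 76.7 CPM with both agents. KPT-330 libraries were the lowest, and the combination overlapped DMSO. KPT-330 gave -0.36 ± 0.07 (adjusted p = 0.00117), CS on top of it 0.41 ± 0.07 (adjusted p = 0.000734), and the interaction was 0.54 ± 0.10 (adjusted p = 0.00401).

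CTSD (cathepsin D) had 11.6, 7.36 and 4.85 CPM in DMSO, 6.58, 7.94 and 11.9 CPM with CS, 12.7, 14.2 and 13.8 CPM with KPT-330, and 11.7, 9.12 and 6.43 CPM with both agents. KPT-330 libraries were the highest, and the other groups overlapped. CTSD shares 1304 exonic bases with a read-through gene on its strand, which had 2744 reads to its 5889. The call for KPT-330 (0.77 ± 0.29, adjusted p = 0.0408) held in 8 of 23 alternatives. It was 0.16 after GC correction (adjusted p = 0.162; the transcript is 64.0% GC), and it was lost without DMSO replicate 2 or 3, CS replicate 2, any KPT-330 replicate or KPT-330+CS replicate 2.

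TFEB had 22.9, 16.0 and 13.7 CPM in DMSO, 15.6, 19.1 and 24.2 CPM with CS, 20, 20.2 and 21.8 CPM with KPT-330, and 19.6, 16.3 and 14.4 CPM with both agents. All groups overlapped DMSO, and TFEB was called in none of the 6 comparisons. Its value for KPT-330 was 0.23 ± 0.19 (adjusted p = 0.313) as counted and -0.28 (adjusted p = 0.000522) after GC correction, so its direction turned with that step. TFE3 passed for both agents against DMSO (0.39 ± 0.15, adjusted p = 0.0459), a call lost in 11 of 23 alternatives, among them without DMSO replicate 2 or 3, CS replicate 2, any KPT-330 replicate or KPT-330+CS replicate 1 or 2. GC correction turned TFE3 (59.2% GC) from -0.24 to 0.15 for CS against KPT-330 (adjusted p = 0.0425) and gave 0.34 for both agents against KPT-330 (adjusted p = 6.82e-05). CTSB with both agents gave -0.27 ± 0.09 against DMSO (adjusted p = 0.026), lost without DMSO replicate 1 or 2 or KPT-330+CS replicate 2 or 3. MCOLN1 was called in none of the comparisons, at 1.96 to 4.29 CPM over all libraries, while after GC correction MCOLN1 (62.0% GC) passed for CS against DMSO (0.37, adjusted p = 0.047) and against KPT-330 (0.50, adjusted p = 0.00217).

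**Figure D5:**
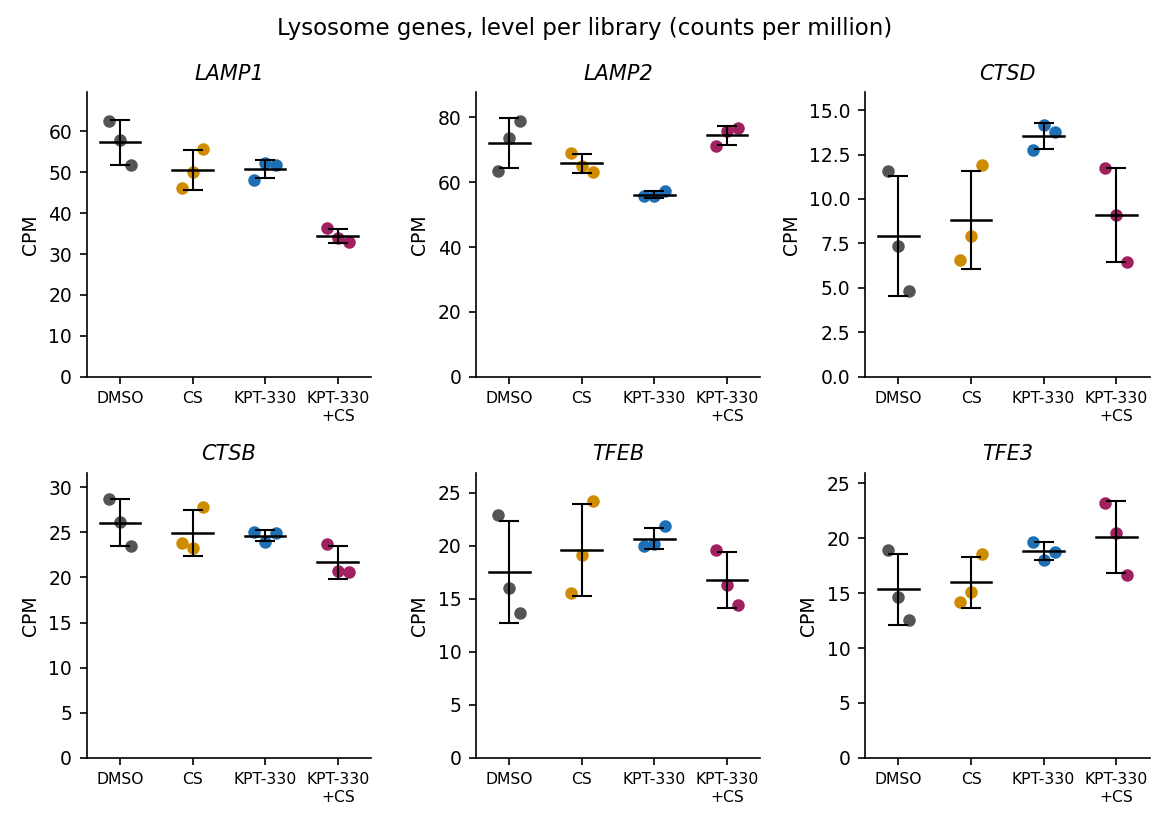
Level of 6 lysosome members in each library (points, CPM on an axis from 0), with the group mean (bar) and SD (error bar), n = 3 libraries a group. LAMP1 is lowest with both agents, LAMP2 is lowest with KPT-330 alone, and CTSD, TFEB and TFE3 spread widely within DMSO, CS and the combination.

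The E-box letters CACGTG, the core of the element through which TFEB and TFE3 act, were searched on both strands of the RefSeq promoter windows (250 bases before to 50 after the start, GRCh38.p14). They stood in 6 of the 40 members with a window (15.0%) and in 8.77% of 27305 genes. The longer TCACGTGA stood in 3 members (7.5%; LAMP1, MCOLN1 and ATG3) and 1.18% of genes, and GTCACGTGAC in MCOLN1 alone among the members and 0.421% of genes; each longer motif contains the shorter one. Among the lysosome members, 3 of 5 held CACGTG. The LAMP1 window (chr13:113296989-113297288, plus strand) is shown because it held 6 copies, each in capitals, 2 of them within TCACGTGA:
LAMP1: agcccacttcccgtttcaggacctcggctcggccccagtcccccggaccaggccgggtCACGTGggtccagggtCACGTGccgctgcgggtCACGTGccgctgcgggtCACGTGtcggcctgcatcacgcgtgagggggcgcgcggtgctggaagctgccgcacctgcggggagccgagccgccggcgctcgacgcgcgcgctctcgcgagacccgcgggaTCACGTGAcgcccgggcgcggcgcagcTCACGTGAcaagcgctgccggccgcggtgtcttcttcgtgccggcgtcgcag
One 40-base stretch of each other member with a match follows, on the gene's strand with the match in capitals, to show which members share the letters. The windows are chr19:7522374-7522673 (plus) for MCOLN1, chr11:1763878-1764177 (minus) for CTSD, chr3:112561913-112562212 (minus) for ATG3, chr14:55411781-55412080 (minus) for ATG14 and chr10:131981874-131982173 (minus) for BNIP3.
MCOLN1: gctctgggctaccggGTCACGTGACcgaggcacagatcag
CTSD: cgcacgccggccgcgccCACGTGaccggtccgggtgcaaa
ATG3: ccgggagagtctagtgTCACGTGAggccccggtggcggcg
ATG14: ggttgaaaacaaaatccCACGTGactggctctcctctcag
BNIP3: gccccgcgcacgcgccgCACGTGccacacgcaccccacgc
These 6 genes did not move together. With both agents against KPT-330, LAMP1 and ATG3 were lower, ATG14 was higher, and BNIP3, CTSD and MCOLN1 missed the threshold. The windows of WIPI1 and ATG4A held neither CACGTG nor TGACGTCA.

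Further genes of the pathway were taken from 4 wider lists, for which GC-corrected values are not given. Of 28 other tested autophagy genes, KPT-330 raised 9 and lowered 4 (32.1% and 14.3%, beside 24.7% and 23.8% of all genes; median 0.13). Both agents against KPT-330 raised 7 (25.0%, beside 19.7%; median 0.12) and left 21 uncalled. TP53INP1, a p53 target that binds ATG8 proteins, rose most, from 0.89 ± 0.23 CPM in DMSO to 1.53 ± 0.19 with CS, 4.92 ± 0.44 with KPT-330 and 17.6 ± 1.40 with both agents (mean ± SD, n = 3). The log2 fold change was 2.47 ± 0.17 for KPT-330 (adjusted p = 1.09e-07) and 1.84 ± 0.14 for both agents against KPT-330 (adjusted p = 8.54e-07). TP53INP2, its relative, rose by 1.10 ± 0.08 with KPT-330 (adjusted p = 2.81e-07). CCPG1, a receptor for the endoplasmic reticulum, was 0.80 ± 0.11 higher with both agents than with KPT-330 (adjusted p = 0.000118). FKBP8, a mitochondrial receptor, passed for KPT-330 (1.10 ± 0.35, adjusted p = 0.0193) but not without DMSO replicate 2 or 3 or KPT-330 replicate 3. With the libraries of lowest GC slope left out, FKBP8 also missed the threshold (0.83, edgeR adjusted p = 0.101).

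Of 43 other lysosomal hydrolases and membrane proteins, KPT-330 raised 14 and lowered 12 (32.6% and 27.9%, beside 24.7% and 23.8% of all genes; median 0.08). Both agents against KPT-330 raised 18 and lowered 9 (41.9% and 20.9%, beside 19.7% and 17.9% of all genes; median 0.12). CTSF (cathepsin F) rose from 2.92 ± 0.66 CPM in DMSO to 14.5 ± 0.93 with KPT-330 and 20.8 ± 1.63 with both agents (mean ± SD, n = 3), and its KPT-330 change was 2.30 ± 0.17 (adjusted p = 2.68e-07). SGSH and GAA, which break down heparan sulfate and glycogen, rose by 1.32 ± 0.20 and 1.23 ± 0.27 with KPT-330 (adjusted p = 0.000114 and 0.00218). When CS was added to KPT-330, NPC2, a cholesterol carrier, rose by 0.91 ± 0.08 (adjusted p = 1.81e-06) and CTSK (cathepsin K) by 0.85 ± 0.21 (adjusted p = 0.00627).

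Of the 17 tested genes of the vacuolar ATPase, the pump that acidifies the lysosome, KPT-330 raised 3 and lowered 5 (17.6% and 29.4%, beside 24.7% and 23.8% of all genes), and both agents against KPT-330 raised 3 and lowered 3 (17.6% each, beside 19.7% and 17.9%). ATP6V1H rose by 0.51 ± 0.07 with KPT-330 (adjusted p = 6.69e-05), ATP6V1G1 by 0.48 ± 0.07 (adjusted p = 7.8e-05) and ATP6V1F by 0.55 ± 0.16 (adjusted p = 0.0119), the last lost without DMSO replicate 3. ATP6V0D1 and ATP6V0B had values of -0.66 ± 0.20 and -0.44 ± 0.13 when CS was added (adjusted p = 0.0186 for each), and both calls were lost without KPT-330 replicate 3 or KPT-330+CS replicate 3, that of ATP6V0D1 also without CS replicate 2 and that of ATP6V0B also without KPT-330 replicate 1.

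Of 17 tested genes that are relatives of TFEB and TFE3 or act on where these proteins reside, KPT-330 raised 2 and lowered 6 (11.8% and 35.3%, beside 24.7% and 23.8% of all genes), and both agents against KPT-330 raised 5 and lowered 3 (29.4% and 17.6%, beside 19.7% and 17.9%). RRAGD, a Rag GTPase, rose from 1.34 ± 0.43 CPM in DMSO to 4.0 ± 0.27 with KPT-330 (mean ± SD, n = 3; log2 fold change 1.57 ± 0.19, adjusted p = 2.54e-05). FLCN, which acts on the Rag GTPases, rose by 0.70 ± 0.12 (adjusted p = 0.000476), and YWHAZ, a 14-3-3 protein, was lower (-0.46 ± 0.08, adjusted p = 0.000278). RRAGA was 0.46 ± 0.06 higher with both agents than with KPT-330 (adjusted p = 4.24e-05), while its KPT-330 value was -0.18 ± 0.06 (adjusted p = 0.0192).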

How the data were processed

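Per the series design text, RNA was prepared with a kit for fixed tissue, made into TruSeq V2 libraries, sequenced on an Illumina instrument and aligned to hg38 with STAR in a changed version of MAP-RSeq. The authors deposited raw gene counts on Ensembl 78, per the same text. STAR and edgeR are also named in the submitters' processing notes. Not given in the sources used here are the counting program, its strand setting and versions. The kit does not mark strand, so where 2 genes overlap on opposite strands their reads cannot be told apart.

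For 64253 genes in 12 libraries the counts entered edgeR 4.0.16 (R 4.3.3): filterByExpr by group, TMM scaling, and the robust two-sided quasi-likelihood F-test with all libraries in 1 fit (8 residual degrees of freedom). The groups shared 1 estimate of spread per gene, though variation within groups was 15.9% in DMSO, 11.8% with CS, 2.88% with KPT-330 and 11.0% with both agents. Fitted with the compared groups alone, CS against DMSO gave 159 genes higher and 90 lower over the whole table, not 731 and 998. P-values were adjusted by Benjamini-Hochberg across 19460 tested genes. CPM and RPKM used TMM-scaled library sizes and the deposited gene lengths. No 2 libraries held identical counts. Library sizes limit precision mainly for genes of a few CPM.

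The members, roles and lists were chosen with earlier results of these data known. Values in every library are given, per role, for the 2 largest called changes with KPT-330, the largest with CS, with both agents against KPT-330 and in the interaction, and for 9 standing genes; from each other list, up to 3 and 2 called genes are named. Members beyond that rule, among them CALCOCO2, WIPI2, VMP1 and ATG16L1, were given after their values were seen.

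Alternatives were other filters, DESeq2 1.42.0 size factors and Wald test, library size scaling, edgeR's likelihood ratio test, a replicate block, a lowess correction for transcript GC content (span 0.3; known for 97.0% of tested genes and 46 members; MAP1LC3B2 had no value and was left uncorrected), the compared groups alone and each library left out. Leaving out the library of lowest GC slope in DMSO, CS and KPT-330+CS was chosen after seeing the data.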

Additional observations from a re-analysis of the deposited data

Results flagged for a closer look

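The difference in the CS effect with and without KPT-330 was tested by the interaction term of edgeR, with adjustment over all tested genes, and it passed for 14 of the members taken by the naming rule. On the log2 scale the interaction was 2.26 for GABARAPL1, 0.95 for WIPI1, 0.61 for ATG4A, 0.54 for LAMP2, 0.51 for BNIP3, 0.51 for RB1CC1, 0.49 for ATG14, 0.47 for NBR1, 0.46 for MAP1LC3B, 0.37 for BECN1, 0.37 for PIK3R4, 0.35 for OPTN, 0.34 for PIK3C3 and -0.38 for LAMP1. The calls of ATG4A, ATG14, PIK3C3, PIK3R4 and LAMP1 were each lost in 9 or more of 22 alternatives. Groups of 3 libraries were too small for a search for single libraries that stand apart.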

How the results depend on the processing

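Of the calls made on members, 17 of 22 for KPT-330 against DMSO, 19 of 25 for both agents against DMSO, 16 of 21 for CS against KPT-330, 13 of 19 for both agents against KPT-330 and 8 of 18 in the interaction held in every alternative, but 0 of 4 for CS against DMSO. GC correction raised the counts of lower members and of members higher with CS: those called lower became 17 for KPT-330 against DMSO (16 with the replicate block; 9 as reported), 12 for CS (10 with the block; 3 as reported), 18 for both agents against DMSO (18 with the block; 8 as reported) and 10 for both agents against KPT-330 (9 with the block; 4 as reported), and members higher with CS became 5 (4 with the block; 1 as reported). Directions reversed under GC correction, with or without the block, for KPT-330 against DMSO in AMBRA1 (-0.17 and -0.17), ATG9A (-0.36 and -0.36), ATG3 (0.084 and 0.084), ATG4D (-0.31 and -0.30), ATG16L2 (-0.28 and -0.28) and TFEB (-0.28 and -0.28). For CS against KPT-330 they reversed in ATG9A (0.30 and 0.30), TFEB (0.40 and 0.40) and TFE3 (0.15 and 0.15). For KPT-330 against DMSO, the change of ATG2A vanished without a reversal (-0.00098 and -0.00036, edgeR adjusted p = 0.994 and 0.998). The cause of these shifts was not tested. Library size alone gave 20 members higher with KPT-330 (13 as reported), 3 higher with CS, 5 lower with both agents against DMSO and 1 lower in the interaction (2 as reported). The shares of all genes moved with these settings too. For KPT-330 against DMSO, 34.2% of all genes were higher with library size alone, and 28.2% were lower after GC correction. For CS against DMSO, the stricter filter gave 2 higher and 5 lower, DESeq2 size factors and the DESeq2 Wald test 0 higher each, the compared groups alone 0 higher and 0 lower, and the libraries of lowest GC slope left out 3 higher. The compared groups alone also gave 5 lower for both agents against DMSO and 7 lower for both agents against KPT-330, and no filter gave 2 lower for the latter. With each library left out in turn, counts higher and lower ranged from 10 to 16 and 9 to 13 (KPT-330 against DMSO), 0 to 2 and 0 to 9 (CS against DMSO), 15 to 18 and 6 to 10 (both against DMSO), 6 to 8 and 11 to 15 (CS against KPT-330), 11 to 19 and 2 to 4 (both against KPT-330), and 10 to 19 and 0 to 3 (interaction). The labels do not say that replicate numbers are shared between groups: same-number correlations ran from -0.384 to 0.401, with 2 of 18 over 0.1, and 3 of 12 libraries matched their own number best. With the replicate block, CS against DMSO gave 0 members higher and 1 lower, and the interaction gave 0 lower.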
